A study of Mus musculus with 6 samples.

Results

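The replication-dependent histone genes code for the bulk of the H1, H2A, H2B, H3 and H4 proteins that package newly made DNA. They were taken as every gene of the deposited tables whose Ensembl identifier maps, in the mouse GENCODE M21 annotation, to a protein-coding symbol beginning with Hist1h, Hist2h, Hist3h or Hist4h. This rule gave 67 of the 53801 genes in the tables, with 6 genes of class H1, 18 of H2A, 18 of H2B, 12 of H3 and 13 of H4. The symbols were used only to choose the genes, and no measured value entered the choice. Of these genes, 54 lie in the Hist1 cluster on chromosome 13, 10 in the Hist2 cluster on chromosome 3, 2 in the Hist3 cluster on chromosome 11 and 1, Hist4h4, on chromosome 6.

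The study sequenced RNA of MC3T3-E1, a line of pre-osteoblasts from mouse, to ask what changes when Hdac4, a class IIa histone deacetylase, is reduced. Both groups were infected with a lentivirus that carries ZsGreen1 and puromycin resistance, and both were then selected with 5 µg/mL puromycin for 7 days. The 3 control libraries come from cells with a scrambled non-silencing RNA, and the 3 Hdac4-knockdown libraries from cells with a short hairpin RNA against Hdac4, which the study's text identifies as Hdac4-shRNA3. A single hairpin was thus sequenced, in infected pools of 1 cell line. The labels describe independent RNA samples and the study's text calls them biological replicates. Whether they came from separate infections was not stated, so p-values measure the spread between these samples. The RNA was poly-A selected and the library kit did not keep the strand. Each table gives reads counted per gene, 29096544 to 31651826 per library.

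Most messenger RNAs end in a poly-A tail. Replication-dependent histone mRNAs are the known exception in animals, since they are cut just after a short stem-loop that binds the protein SLBP, and they are made in S phase and degraded when DNA synthesis stops. Some histone genes also give transcripts with a poly-A tail that run past the stem-loop, as has been described for cells that leave the cell cycle. A poly-A selected library therefore samples these genes mainly through such tailed transcripts, or through tailless RNA carried over in the selection, and the counts do not give the total histone mRNA. A lower or higher count here was not tested against the tailless form.

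The stem-loop was searched for as a 16-base element, a 6-base stem around a 4-base loop, in the annotated transcripts. It was found in 46 of the 67 genes, and 26 of these carried the same 16 bases. The sites below are shown because the counts are set further on against where each gene model stops relative to this element. Capitals mark the bases that pair in the stem, with 5 flanking bases on each side.
Hist1h1c: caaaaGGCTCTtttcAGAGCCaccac
Hist1h2ac: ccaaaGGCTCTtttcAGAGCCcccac
Hist1h2bg: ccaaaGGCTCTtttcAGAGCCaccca
Hist1h3b: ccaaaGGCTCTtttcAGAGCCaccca
Hist1h3c: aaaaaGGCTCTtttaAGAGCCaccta
Hist1h4h: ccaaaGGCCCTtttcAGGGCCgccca
Hist1h4i: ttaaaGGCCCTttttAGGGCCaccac
These 16-base elements lie, in GRCm38, at chr13:23739512-23739527 (plus strand) for Hist1h1c, chr13:23683477-23683492 (minus) for Hist1h2ac, chr13:23571843-23571858 (plus) for Hist1h2bg and chr13:23752820-23752835 (plus) for Hist1h3b. Those of Hist1h3c, Hist1h4h and Hist1h4i lie at chr13:23745047-23745062 (minus), chr13:23531458-23531473 (plus) and chr13:22040966-22040981 (minus). All 7 stand after the stop codon, in the 3′ untranslated part of the gene's annotated exon. The distance from the stop codon was 24 bases in Hist1h1c, 32 in Hist1h2ac, 29 in Hist1h2bg and in Hist1h3b, 24 in Hist1h3c, 31 in Hist1h4h and 30 in Hist1h4i. The H1, H2A, H2B and H3 sites shown share 1 stem, and the H4 sites carry another, in which both arms remain complementary.

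The annotated models differ in where they stop. In 23 genes the exons end between 3 and 74 bases after the stem-loop, with a median of 33, whereas the tailless mRNA is cut within a few bases of it. In another 23 genes they run from 108 to 4884 bases past it, with a median of 752. The models of 17 genes hold no exact copy of the element and reach fewer than 100 bases past the stop codon. They are grouped here as stopping short of the stem-loop, although the sequence beyond them was not searched. A further 4 long models, those of Hist1h2bc, Hist1h2bq, Hist1h2br and Hist2h2be, also hold no exact copy. The model of Hist1h2bc is spliced, and its joined exons hold no stem-loop. The coding sequences are also close to each other. Over pairs of genes with the commonest coding length of their class, the median identity was 96.7% in H2A, 97.4% in H2B, 97.2% in H3 and 93.9% in H4. For 28 of the 67 genes, 50% or more of the 100-base windows of the gene occurred in transcripts of another gene, and 24 shared exon bases with another gene model. Reads of these genes may have been divided between copies or set aside, so their single values are uncertain.

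Hdac4 was counted 1243, 1204 and 1136 times in the control libraries and 950, 927 and 887 times in the Hdac4-knockdown libraries. The knockdown level was 73.6% of control (log2 fold change -0.44, SE 0.057, edgeR adjusted p = 8.98e-07), so the targeted gene goes with the labels. Libraries differed in other ways too. Reads outside annotated genes made up 3.17 to 3.41% of reads in control and 4.64 to 5.07% in Hdac4-knockdown libraries, and reads aligned to several places 4.61 to 4.77% and 3.88 to 4.15%. Ambiguous reads made up 6.36 to 6.51% in control and 5.84 to 5.92% in Hdac4-knockdown libraries. Of 9 osteoblast markers, Alpl, which codes for the alkaline phosphatase of bone, reached at most 3 counts in any library. Bglap, Bglap2 and Ibsp reached at most 12 and, like Alpl, were not tested. Col1a1, Col1a2 and Sp7 were called higher in Hdac4-knockdown and Spp1 was called lower (log2 fold change -0.62). Runx2 was also called higher (log2 fold change 0.19), although its libraries overlapped between groups. The list summed to 4769 to 4781 CPM (counts scaled to library size) in control and 21428 to 22266 CPM in Hdac4-knockdown, where Col1a1 and Col1a2 made up most of it. All 5 myoblast markers were present in control and called lower in Hdac4-knockdown, with a summed level of 828 to 868 CPM against 111 to 127 CPM. Endothelium markers summed to 0.262 to 0.421 CPM in control and 2.81 to 3.16 CPM in Hdac4-knockdown, and macrophage markers to 1.60 to 2.59 and 2.69 to 3.13 CPM. Adipocyte markers summed to 43.1 to 46.8 and 8.89 to 9.97 CPM, and chondrocyte markers to 125 to 128 and 168 to 186 CPM. The chondrocyte markers were unlike. Sox9 was not called (mean 126 and 127 CPM), and Acan was at 0 in every library. Col2a1 went from a mean of 0.827 to 51.1 CPM (log2 fold change 5.93), and Col10a1, at 1 count in each control library, was also called higher. The part of these differences in the histone values was not tested.

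Summed over all 67 genes, histone counts were 1713, 1824 and 1719 in the control libraries and 4520, 4979 and 4476 in the Hdac4-knockdown libraries. Every knockdown library lay above every control library. TMM scaling adjusts library sizes as if most genes were level, whereas 38.0% of tested genes were called higher here and 37.1% lower. After this scaling the histone sum was 59.1 ± 2.65 CPM (SD, n = 3) in control and 149.8 ± 4.31 CPM (SD, n = 3) in Hdac4-knockdown. The difference was 2.53-fold (log2 ratio 1.34). The sum rests largely on Hist1h1c and Hist1h2bc, which held 59.8 to 62.7% of the histone counts in control and 66.6 to 67.5% in Hdac4-knockdown libraries. Without both, the sum was 22.9 ± 0.616 CPM in control and 49.1 ± 0.987 CPM in Hdac4-knockdown (SD, n = 3), a 2.15-fold difference. In bulk RNA, a change in the number of cells that carry a transcript and a change in its amount per cell cannot be told apart.

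All 5 classes had a higher sum in every Hdac4-knockdown library than in any control library. H2B differed most, with 16.8 ± 1.59 and 65.6 ± 2.83 CPM, a 3.90-fold difference. H1 went from 29.3 ± 2.24 to 60.2 ± 1.58 CPM (2.05-fold), and H4 from 6.29 ± 0.530 to 13.3 ± 0.775 CPM (2.12-fold). H2A, at 1.50 ± 0.289 and 3.66 ± 0.0886 CPM, was 2.44-fold higher. H3 differed least, with 5.15 ± 0.400 CPM in control and 7.06 ± 0.414 CPM in Hdac4-knockdown, or 1.37-fold (all SD, n = 3). The H3 difference was that of 3 genes, Hist1h3b (mean 0.312 and 1.57 CPM), Hist1h3d (0.503 and 1.90 CPM) and Hist2h3c2. The other H3 genes tested had log2 fold changes below 0. The share of H2B in the histone counts was 28.5% in control and 43.8% in Hdac4-knockdown, and that of H1 49.6% and 40.2%.

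**Figure D1:**
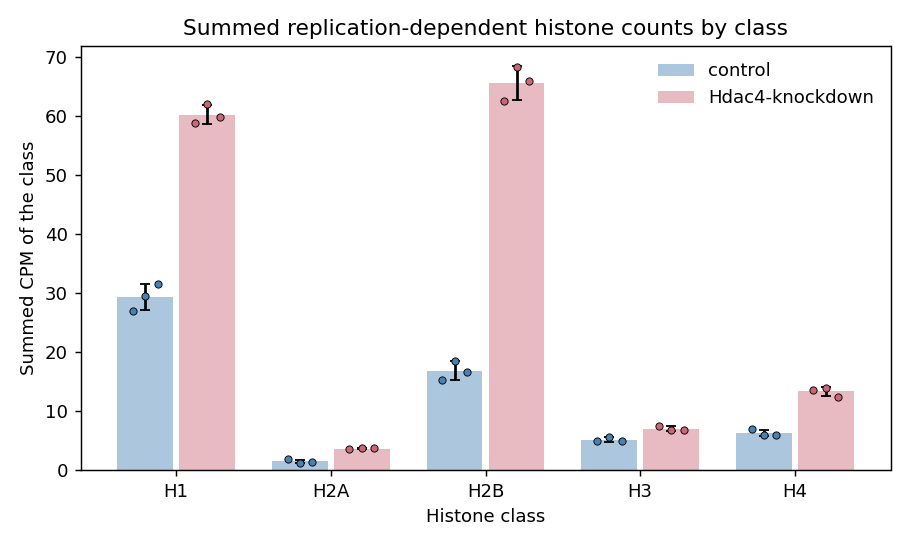
Summed CPM of the replication-dependent histone genes (vertical axis, linear from 0) by class (horizontal axis). Bars are means of 3 libraries, error bars SD and points single libraries, and in each class the 3 Hdac4-knockdown points lie above the 3 control points.

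Gene by gene, 34 of the 67 passed the filter on low counts (about 10 counts in at least 3 libraries). Of these, edgeR called 20 higher and 3 lower in Hdac4-knockdown at an adjusted p-value below 0.05 over 14531 genes, and 11 were not called. The background is high in this data set, since 38.0% of all tested genes were called higher and 37.1% lower. The median log2 fold change of the 34 was 1.12, and that of all tested genes 0.01. The 34 are not the whole family. The filter let a gene pass on the libraries of either group alone, which favours a difference between groups in such genes. Among the 34 genes, 7 had passed on Hdac4-knockdown libraries alone, of which 6 were called higher. Only 1 had passed on control libraries alone, and it was called lower. Of the 10 genes that were over the limit in all 6 libraries, 9 were called higher and 1 was not called. Among the tested genes with over 3 counts in at least 2 control libraries, 16 of 30 were called higher. With no filter beyond 1 count, 59 genes could be tested and 21 were called higher and 6 lower. The remaining 33 genes had at most 20 counts in any library, and 8 of them had 0 in all 6.

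**Figure D2:**
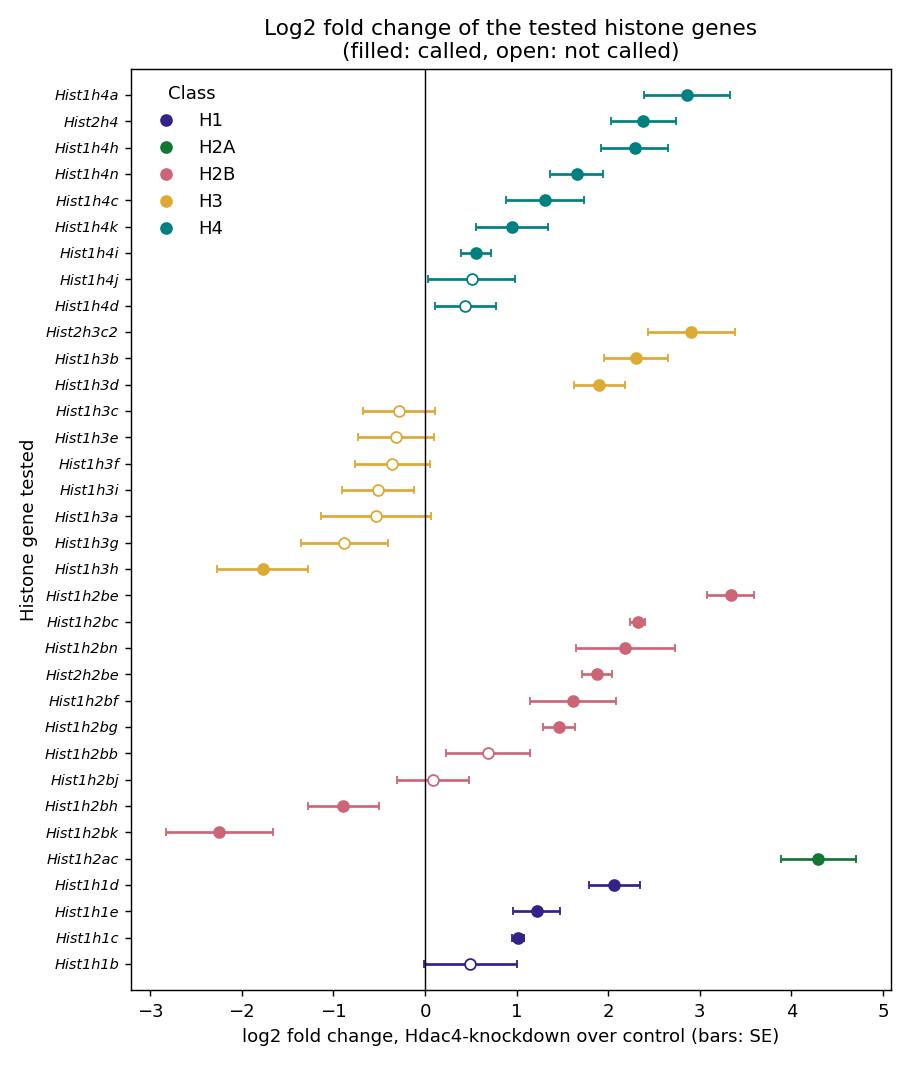
Log2 fold change of the 34 tested histone genes (horizontal axis, Hdac4-knockdown over control, bars SE), grouped by class and ordered within it (vertical axis). Filled points were called, 20 to the right of 0 and 3 to the left, and the H3 genes stand on both sides.

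The H1 linker histones bind the DNA between nucleosomes and compact chromatin. Hist1h1c (ENSMUSG00000036181, chr13:23738808-23740367, plus strand), the gene of linker histone H1.2, was the most counted of all, with 761, 806 and 831 counts in control and 1679, 1791 and 1612 in Hdac4-knockdown. The 2 groups are far apart, at 27.0 ± 2.13 and 54.5 ± 1.03 CPM (SD, n = 3) (log2 fold change 1.01, SE 0.061, adjusted p = 1.06e-11), the smallest difference among the called H1 genes. Its exons run 840 bases past the stem-loop shown above. Hist1h1d, which codes for H1.3, had 14, 17 and 29 counts in control and 76, 85 and 104 in Hdac4-knockdown (log2 fold change 2.07, SE 0.280, adjusted p = 1.70e-06). Its model is 7425 bases long, of which 4884 lie after the stem-loop.
Hist1h1e, which codes for H1.4, had 29, 34 and 20 counts against 54, 78 and 71, again with no overlap (log2 fold change 1.22, SE 0.256, adjusted p = 2.66e-04). It shares 496 exon bases with the Hist1h2be model, so these reads may be set aside or assigned to either. Hist1h1b, with a model that stops short of the stem-loop, had 16, 9 and 8 counts in control and 7, 32 and 10 in Hdac4-knockdown, and the groups overlapped (adjusted p = 0.386). Hist1h1a and the testis-type gene Hist1h1t had at most 17 counts in any library and were not tested.

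In H2A, whose protein pairs with H2B in the nucleosome, only 1 of 18 genes could be tested. Hist1h2ac (chr13:23681467-23683948, minus strand) had 6, 1 and 2 counts in control and 63, 69 and 60 in Hdac4-knockdown. It was near the limit of detection in control and evenly counted in Hdac4-knockdown, with the largest log2 fold change of all tested histone genes, 4.29 (SE 0.411, adjusted p = 1.33e-08), and it had passed the filter on the Hdac4-knockdown libraries alone. Its model runs 2010 bases past the stem-loop and shares 246 exon bases with 2 other gene models. Hist1h2ad, not tested, had 2, 2 and 0 counts in control and 12, 9 and 15 in Hdac4-knockdown, a ratio of 8.59 with a 95% exact binomial counting interval of 3.08 to 33.2.
Hist1h2ae, with 20, 7 and 8 counts against 9, 16 and 4, overlapped between groups. Hist3h2a had 13, 13 and 8 counts in control and 7, 6 and 8 in Hdac4-knockdown, and neither gene could be tested. Counting intervals cover counting error only. Low H2A counts do not show low H2A mRNA. Of the 18 models 15 end at the stem-loop or stop short of it, and all 18 share exon bases with another gene. Every exon base of Hist2h2aa1 and Hist2h2aa2, and likewise of Hist2h2bb, Hist2h3b and Hist2h3c1, is covered by another gene model, and all 5 were at 0 in every library. Over Hist2h2aa2 lies Gm20632, singled out after its values were seen, which had 15, 17 and 13 counts in control and 144, 139 and 162 in Hdac4-knockdown (log2 fold change 3.23, SE 0.220, adjusted p = 6.98e-11). Without strand, reads on the bases that both models share cannot be told apart, and how the counting treated such reads is not given. Which bases of Gm20632 its counts came from was not tested.

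In H2B, 10 of 18 genes were tested. Of these, 6 were called higher and 2 lower, beside 38.0% and 37.1% of all tested genes. Hist1h2bc (ENSMUSG00000018102, chr13:23684199-23692908, plus strand) had 264, 312 and 246 counts in control and 1331, 1570 and 1410 in Hdac4-knockdown. The groups lay far apart, at 9.23 ± 1.03 and 46.2 ± 2.91 CPM (SD, n = 3) (log2 fold change 2.32, SE 0.081, adjusted p = 1.37e-15). Per kilobase of annotated exon, Hist1h2bc stood below Hist1h1c in control (7.99 ± 0.893 against 17.3 ± 1.36 CPM per kb) and above it in Hdac4-knockdown (40.0 ± 2.51 against 34.9 ± 0.658 CPM per kb, SD, n = 3).
Hist2h2be, in the Hist2 cluster, had 41, 55 and 54 counts in control and 179, 198 and 202 in Hdac4-knockdown, with no overlap (log2 fold change 1.88, SE 0.166, adjusted p = 3.94e-09). None of its 100-base windows occurs in transcripts of another gene. Hist1h2bg had 68, 53 and 52 counts against 199, 161 and 140, also apart (log2 fold change 1.46, SE 0.176, adjusted p = 3.58e-07).
Hist1h2be had the largest log2 fold change of the class, 3.33 (SE 0.254, adjusted p = 3.99e-10), on 16, 7 and 18 counts in control and 128, 153 and 156 in Hdac4-knockdown. Its annotation stretches from 23583670 to 23621124 of chromosome 13 and includes the 496 bases shared with Hist1h1e. Hist1h2bk went the other way, with 15, 26 and 19 counts in control and 3, 10 and 0 in Hdac4-knockdown. It was the lowest called value of the class (log2 fold change -2.25, SE 0.581, adjusted p = 0.00180), had passed the filter on control libraries alone, and 70.8% of its windows occur in another gene's transcripts.
Hist1h2bh, also called lower (log2 fold change -0.89, SE 0.389, adjusted p = 0.0446), had 14, 29 and 21 counts in control and 13, 14 and 9 in Hdac4-knockdown, so that the groups nearly touch. Its call was lost on leaving out control library 2 or 3 or any of the 3 Hdac4-knockdown libraries, with log2 fold changes of -1.15 to -0.63 over the 6 fits and an adjusted p of up to 0.219. Hist3h2ba, not tested, had 8, 15 and 7 counts in control and 2, 1 and 3 in Hdac4-knockdown (ratio 0.191, 95% counting interval 0.0649 to 0.466).

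**Figure D3:**
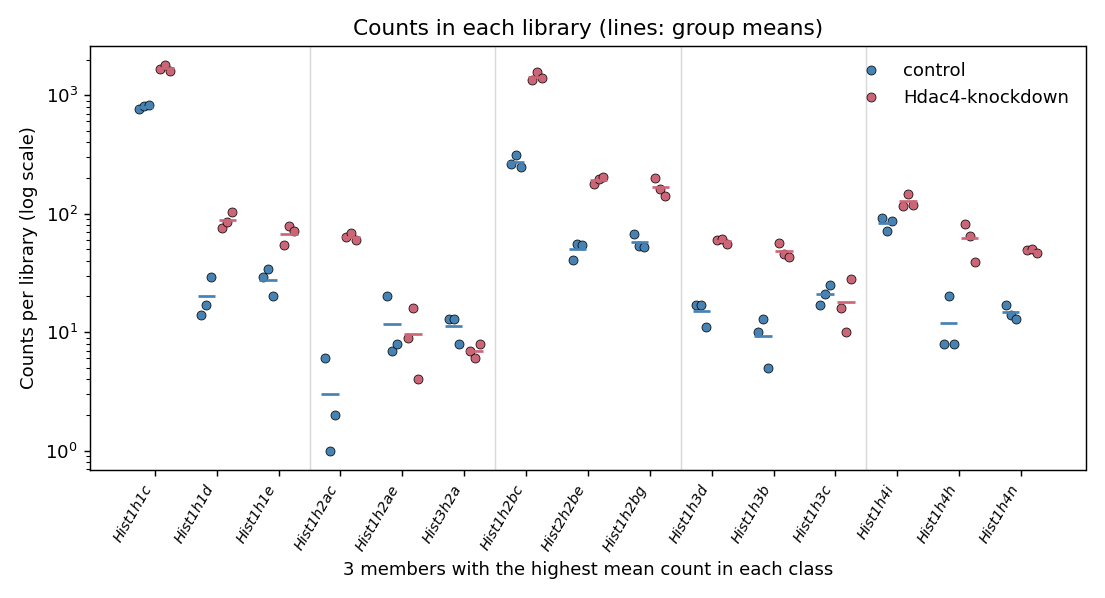
Counts in each library (vertical axis, log scale) for the 3 histone genes with the highest mean count in each class (horizontal axis), with lines at the group means. The groups overlap for Hist1h2ae and Hist1h3c, touch at 8 counts for Hist3h2a and are apart for the other genes plotted.

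H3, whose tail carries many of the known chromatin marks, was the mixed class. Of 12 genes 10 were tested, and 3 were called higher, 1 lower and 6 were not called. Neither share stands above that over all tested genes, of which 38.0% were called higher and 37.1% lower. All 6 that were not called had a log2 fold change below 0, from -0.88 (Hist1h3g) to -0.29 (Hist1h3c), with overlapping groups. Hist1h3d had 17, 17 and 11 counts in control and 60, 61 and 56 in Hdac4-knockdown (log2 fold change 1.90, SE 0.279, adjusted p = 4.78e-06), and its groups were well apart. Hist1h3b had 10, 13 and 5 counts against 57, 46 and 43 (log2 fold change 2.30, SE 0.350, adjusted p = 7.27e-06), and 56.6% of its windows occur elsewhere. Hist2h3c2 had 2, 6 and 2 counts against 22, 32 and 27, the largest log2 fold change of the class at 2.90 (SE 0.475, adjusted p = 1.77e-05). It had passed the filter on the Hdac4-knockdown libraries alone, and 61.6% of its windows occur elsewhere.
For these 3 genes no control library reached an Hdac4-knockdown library. Hist1h3c, in contrast, had 17, 21 and 25 counts in control and 16, 10 and 28 in Hdac4-knockdown (adjusted p = 0.521). Hist1h3h had 21, 17 and 31 counts against 11, 9 and 1, and was called lower (log2 fold change -1.77, SE 0.494, adjusted p = 0.00323). For this gene 92.0% of the windows are found in transcripts of another gene, so its reads are among the least certain to place.

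H4, the most conserved of the core histones, had 9 of 13 genes tested, with 7 called higher and 2 not called. All 9 had a log2 fold change above 0. The share called higher among all tested genes was 38.0%. Hist1h4i (chr13:22040636-22041362, minus strand) was the most counted, with 92, 71 and 86 counts in control and 117, 148 and 119 in Hdac4-knockdown. The groups were apart but close, and the difference was the smallest called in the class (log2 fold change 0.55, SE 0.164, adjusted p = 0.00507). Hist1h4h had 8, 20 and 8 counts against 82, 65 and 39 (log2 fold change 2.29, SE 0.366, adjusted p = 1.36e-05), apart but with a wide spread in Hdac4-knockdown. Hist1h4n had 17, 14 and 13 counts against 49, 50 and 47 (log2 fold change 1.66, SE 0.290, adjusted p = 3.94e-05). The groups were apart, although 80.7% of its windows occur elsewhere.
Hist1h4a had the largest difference, with 4, 3 and 2 counts against 23, 29 and 19 (log2 fold change 2.86, SE 0.472, adjusted p = 2.00e-05), and passed the filter on Hdac4-knockdown alone. Hist2h4, Hist1h4c and Hist1h4k were also called higher, at log2 fold changes of 2.38, 1.31 and 0.95. The call of Hist1h4c was lost without control library 2 or 3 (adjusted p of up to 0.0594), and that of Hist1h4k without either of these or Hdac4-knockdown library 2 or 3 (up to 0.169). Hist1h4d and Hist1h4j, with 0.44 and 0.51, were not called. Hist1h4m, not tested, had 2, 2 and 2 counts in control and 19, 8 and 8 in Hdac4-knockdown, a ratio of 5.57 with a 95% counting interval of 2.32 to 16.2.

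The Hist1 and Hist2 sums were higher in Hdac4-knockdown, and the Hist3 sum and Hist4h4 were lower. In Hist1, 31 of 54 genes were tested, with 17 called higher and 3 lower, beside 38.0% and 37.1% of all tested genes. The Hist1 sum went from 56.0 ± 2.35 to 140.9 ± 4.36 CPM (SD, n = 3). In Hist2 all 3 genes tested, Hist2h2be, Hist2h3c2 and Hist2h4, were called higher, of which Hist2h3c2 and Hist2h4 had passed the filter on Hdac4-knockdown libraries alone. The sum went from 2.07 ± 0.340 to 8.51 ± 0.498 CPM, while 6 of the 10 Hist2 genes were at 0. The 3 genes outside these clusters had fewer counts in Hdac4-knockdown. The Hist3 sum was 21, 28 and 15 counts in control and 9, 7 and 11 in Hdac4-knockdown, and Hist4h4 had 13, 11 and 8 counts against 5, 1 and 3. After scaling, none of the 3 overlapped between groups, as was the case downward for 38.0% of all tested genes, and none passed the filter. With no filter beyond 1 count, edgeR called Hist3h2ba (log2 fold change -2.34, adjusted p = 0.00895) and Hist4h4 (-1.88, adjusted p = 0.0222) lower, together with Hist1h1a (-1.70, adjusted p = 0.0388) and Hist1h2bm (-1.69, adjusted p = 0.0290), and called Hist1h2ad (2.97, adjusted p = 8.74e-04) and Hist1h4m (2.38, adjusted p = 0.00501) higher. Whether the clusters differ from each other was not tested.

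Most histone counts fell on gene models that extend past the stem-loop. The 23 models that run past the stem-loop and the 4 long models without it held 85.4% of the histone counts in control and 91.6% in Hdac4-knockdown. The 7 genes with a mean of over 50 counts were all among them. These long models summed to 50.5 ± 1.88 CPM in control and 137 ± 4.46 CPM in Hdac4-knockdown, a 2.72-fold difference, and the 40 models that end at the stem-loop or before it to 8.63 ± 0.788 and 12.6 ± 1.40 CPM, a 1.46-fold difference (SD, n = 3). The kinds of model within each group were unlike. The sum was 2.14-fold higher in Hdac4-knockdown for models that run past the stem-loop and 1.80-fold for those that end at it. It was 4.80-fold for the 4 long models without the element, mostly Hist1h2bc, and 0.856-fold, with overlapping groups, for those that stop short. In H4 the order was turned, with 1.75-fold for long and 3.33-fold for short models. In counts, the long models exceeded the short ones 5.56 to 6.23 times in the control libraries and 9.76 to 12.6 times in the Hdac4-knockdown libraries, without overlap. Of 19 long models tested, 14 were called higher and 1 lower, and of 15 short ones 6 higher and 2 lower. Over all tested genes 38.0% were called higher, near the share among the short models, and 37.1% lower. Whether the kinds of model differ was not tested. Longer models collect more reads by their length alone. Per kilobase, the median gene whose model runs past the stem-loop was at 0.403 CPM per kb in control and 0.829 in Hdac4-knockdown, the median gene that ends at it at 0.400 and 0.487, and the median gene that stops short of it at 0.220 and 0.0814.

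**Figure D4:**
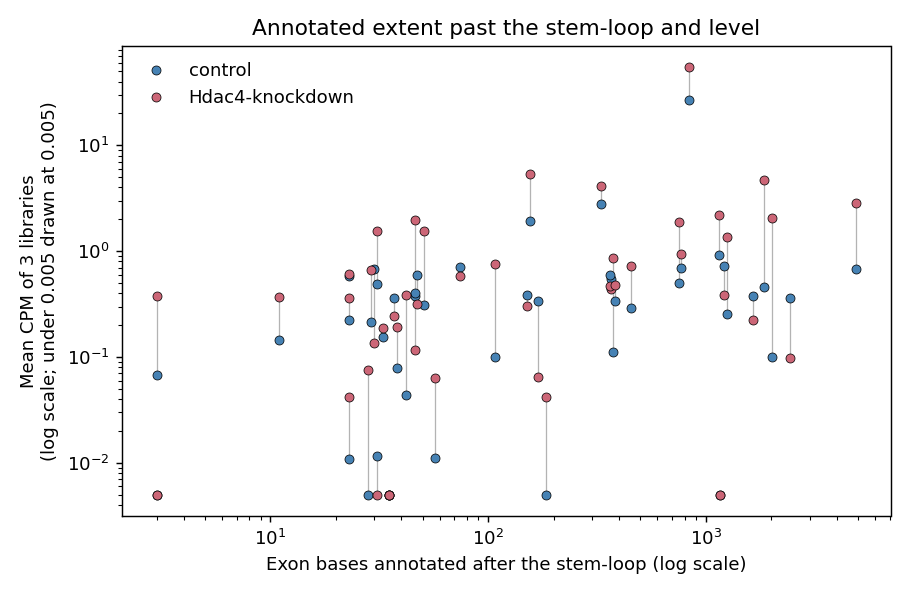
Mean CPM of 3 libraries (vertical axis, log scale, values under 0.005 drawn at 0.005) against the exon bases annotated after the stem-loop (horizontal axis, log scale) for the 46 histone genes with a stem-loop, with a grey line joining the 2 groups of a gene. The highest points, near 27.0 and 54.5 CPM, are Hist1h1c, with 840 bases past the element.

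Many H2A and H2B genes stand head to head and share the DNA between their starts. There were 12 such H2A and H2B pairs among the histone genes, with 175 to 305 bases between the annotated starts. In only 1 of them, Hist1h2ac and Hist1h2bc with 250 bases between, could both genes be tested, and both were called higher. The stretch before Hist1h2ac (RefSeq, GRCm38, chr13:23683960-23684209, minus strand) is shown because it spans nearly the whole gap of this pair.
Hist1h2ac: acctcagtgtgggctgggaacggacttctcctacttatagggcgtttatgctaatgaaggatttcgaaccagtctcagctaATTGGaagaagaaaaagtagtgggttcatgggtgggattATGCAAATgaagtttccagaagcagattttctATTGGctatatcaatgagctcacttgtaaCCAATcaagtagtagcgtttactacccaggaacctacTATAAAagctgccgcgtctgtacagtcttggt
Capitals mark a TATAAA box, the octamer ATGCAAAT, which OCT factors bind, and CCAAT boxes, read as ATTGG where they lie on the other strand. These motifs, and TTTNNCGC, were searched on both strands in the 250 bases before the start, and none of the 4 contains another. A RefSeq stretch was matched for 62 of the 67 genes.
CCAAT was present in all 18 H2A, all 16 H2B and all 6 H1 stretches, in 80.0% of the 10 H3 and 25.0% of the 12 H4 stretches, against 33.9% of 32851 RefSeq stretches of the same length. ATGCAAAT was found in 38.9% of H2A and 37.5% of H2B stretches and in 1.60% of all, and in no H1, H3 or H4 stretch. TATAAA was found in 46.8% of the histone stretches and 12.4% of all, and TTTNNCGC in 22.6% and 4.28%. Paired genes share the same DNA, so these shares do not count independent stretches, and a match is not evidence of binding.

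Other genes of histone supply are set beside the histone genes here. Of 20 genes for histone mRNA synthesis, processing and decay, all of which were tested, 3 were called higher, 10 lower and 7 were not called, with a median log2 fold change of -0.14. Over all tested genes, 37.1% were called lower. Slbp, whose product binds the stem-loop, had 2071, 2106 and 1793 counts in control and 1643, 1612 and 1620 in Hdac4-knockdown, without overlap (log2 fold change -0.36, SE 0.054, adjusted p = 6.92e-06). Npat, the coactivator of histone gene transcription, was at 46.5 ± 2.55 and 44.0 ± 4.18 CPM (SD, n = 3) and was not called (adjusted p = 0.285). Srrt, a cap-binding cofactor and the list's highest in CPM, fell by 0.43 on the log2 scale. The called extremes were Lsm11, a subunit of the U7 particle that directs the cut, at -0.57, and Mif4gd, an SLBP partner in translation, at 0.51.

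The variant histone genes, most of whose mRNAs carry poly-A tails and are not tied to S phase, were nearly all lower in Hdac4-knockdown. Of 11 variants, 10 were called lower and 1 higher, with a median log2 fold change of -0.88. Among all tested genes, 37.1% were called lower and 38.0% higher. H3f3b, which codes for H3.3 and had the highest CPM of the list, had 46871, 42407 and 41249 counts in control and 22420, 22983 and 22385 in Hdac4-knockdown (log2 fold change -1.01, SE 0.039, adjusted p = 6.92e-15). H3f3a, which codes for the same protein, fell by 0.17 (adjusted p = 0.00454), H2afz by 0.76 (adjusted p = 1.98e-11) and H2afx, known to make both a tailed and a stem-loop mRNA, by 0.94 (adjusted p = 5.60e-11). The largest fall was that of H2afy2, a macroH2A gene, at -1.65. H2afj alone rose, with 180, 171 and 159 counts in control and 436, 424 and 488 in Hdac4-knockdown (log2 fold change 1.34, SE 0.105, adjusted p = 6.03e-10). Per kilobase, the 67 histone genes summed to 57.0 ± 2.28 CPM per kb in control and 130.2 ± 4.61 in Hdac4-knockdown, and the 11 variants to 1077 ± 37.8 and 581 ± 16.3 (SD, n = 3). The replication-dependent sum was thus 5.29% of the variant sum in control and 22.4% in Hdac4-knockdown. Poly-A selection samples the 2 sets unequally, so these are not ratios of total histone mRNA.

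Genes of histone chaperones, which carry histones to DNA, and of proteins that work with them were mostly lower. Of 20 genes, 15 were called lower, 3 higher and 2 were not called (median log2 fold change -0.57). The shares among all tested genes were 37.1% lower and 38.0% higher. Npm1 had the highest CPM and fell by 0.73, Asf1b fell most, by 1.21, and Atrx rose most, by 0.51, followed by Hira (0.30) and Daxx (0.14). Of 17 S phase genes, 16 were called lower and 1 higher (median log2 fold change -0.50). Rrm2, a subunit of ribonucleotide reductase, had the highest CPM and the largest fall, at -1.35, and Ung was called higher at 0.27. The histone sums were thus higher in the libraries in which most genes of the S phase and chaperone lists were lower. Whether these are linked was not tested.

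**Figure D5:**
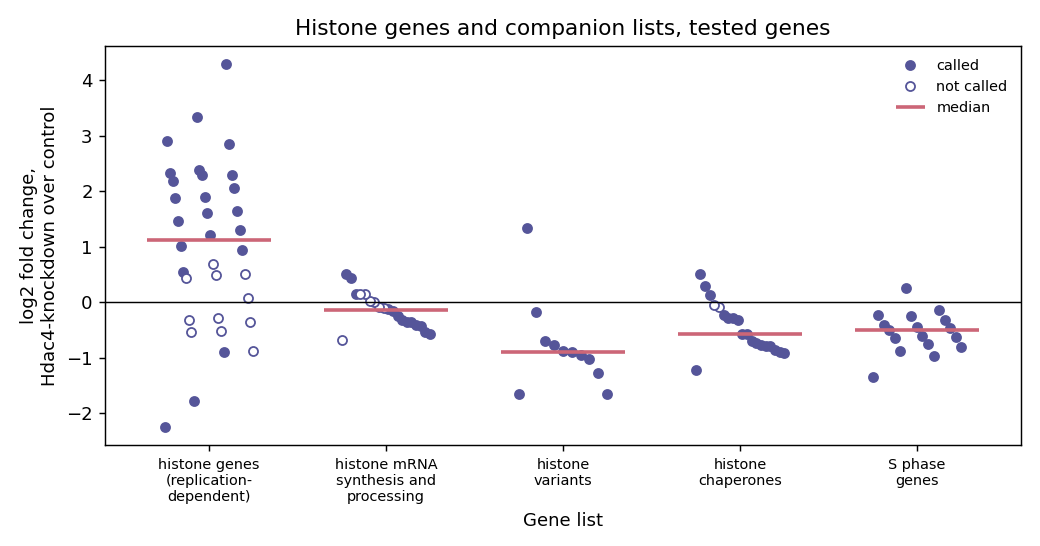
Log2 fold change, Hdac4-knockdown over control (vertical axis), of the tested genes of each list (horizontal axis). Filled points were called and lines are medians, which lie at 1.12 for the histone genes and at -0.14, -0.88, -0.57 and -0.50 for the 4 companion lists.

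RNAs without a poly-A tail were looked at for a partial view of what the selection let through. Of 13 such RNAs looked for, 11 were in the tables, and 8 of these had at most 3 counts in every library. These low counts do not show that the selection removed such RNAs, since reads may have been divided between copies or set aside. Rn7sk, a nuclear RNA of polymerase III, was the only one tested, with 189, 178 and 145 counts in control and 153, 148 and 144 in Hdac4-knockdown, and was not called (log2 fold change -0.27, SE 0.129, adjusted p = 0.0667). The list summed to 5.23 to 6.22 CPM in control and 4.81 to 5.58 CPM in Hdac4-knockdown, with overlapping ranges. Rny1 had 0, 0 and 1 counts against 2, 5 and 9, and Rnu12 had 1, 0 and 2 against 9, 2 and 14, both too low to test and both mostly higher in Hdac4-knockdown. The part of tailless RNA in the histone counts was not tested.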

How the data were processed

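The authors deposited raw read counts per Ensembl gene for each library, and FastQC, STAR 2.7.3a, HTSeq 0.12.4 and mm10 are named in the submitters' processing notes. The counting annotation, strand setting and treatment of multi-mapped reads are not given in the sources used here. The closing summary lines of each table were left out of the gene counts. They held 3.17 to 5.07% of reads outside genes, 5.84 to 6.51% ambiguous and 3.88 to 4.77% aligned to several places.

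Of the 53801 identifiers, 53706 were found in GENCODE M21 (GRCm38). R 4.3.3 ran edgeR 4.0.16 on them, with filterByExpr, TMM scaling, the quasi-likelihood F test and Benjamini-Hochberg adjustment over 14531 genes. A gene was called when its adjusted p was under 0.05 and its log2 fold change exceeded 0.05 in size. The fit was tested on simulated data. Replicates of a group differed by more than sampling noise (chi-square per gene 3.23 to 8.36). An exact permutation test of 3 against 3 libraries cannot give a p below 0.1 and was not used.

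The genes, lists and tests were chosen with earlier results of these data known. Named in full were, per class, the 3 genes with the highest mean count, the called genes with the largest and smallest log2 fold change, and genes over 3 counts in every library of 1 group and at 3 or fewer in the other. Of the companion lists, the gene highest in CPM and the called extremes were named, with Slbp, Npat, H2afz, H2afx, H3f3a and H3f3b. Others are named where a count or a call needed them. Alternatives were DESeq2 size factors, upper quartile and library size scaling, no filter, a minimum of 10 counts per library, the DESeq2 1.42.0 test, a replicate block, log2 limits of 0.5 and 1, and each library left out. Sums without Hist1h1c and Hist1h2bc, genes clear of other genes and genes with over 3 control counts were chosen after seeing the data.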

Additional observations from a re-analysis of the deposited data

Results flagged for a closer look

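Reads that fell outside annotated genes, which no comparison of the histone genes used, made up 4.79 ± 0.241% of reads in the Hdac4-knockdown libraries and 3.28 ± 0.122% in the control libraries (SD, n = 3), and stood out because they were above the control level in every Hdac4-knockdown library. Reads past the end of a histone gene's annotation would fall into this share, and how many did was not tested.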

How the results depend on the processing

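The 20 genes called higher and 3 called lower became 19 and 2 with the replicate block. Deviations of libraries with the same number correlated at -0.01, 0.10 and 0.02, so the numbers were not taken as pairs. With at least 10 counts in every library, 11 genes remained testable and 9 were higher and 0 lower (edgeR, with 0 lower at an unadjusted p below 0.05). DESeq2 was run on another set, of 50 genes with an adjusted p, and called 20 higher and 3 lower there. With no filter 6 were lower, and among 23 tested genes clear of other genes 12 were higher and 1 lower, where fewer genes were tested. Leaving out each library gave 19 to 22 higher and 2 to 4 lower. The median log2 fold change of 1.12 became 0.92 with no filter, 1.50 with at least 10 counts, 0.88 in DESeq2, 1.12 with the block, and 0.98 to 1.39 on leaving out a library. The log2 ratio of the summed counts, 1.34, became 1.43 with upper quartile scaling, 1.40 with library size alone, 1.10 without Hist1h1c and Hist1h2bc, and 1.29 to 1.37 on leaving out a library. Hist1h3c, not called, ranged from -0.772 to 0.0272 on leaving out a library and turned above 0 without Hdac4-knockdown library 2. For the 18 tested genes chosen by the naming rule, the other 225 of 226 values kept their direction and call. Outside that rule, Hist1h2bh, Hist1h4c and Hist1h4k lost their calls on leaving out single libraries, as given with their values. DESeq2 gave no adjusted p for 9 of 59 genes. Counts were low for most of the family, with a mean of 17.3 for the median tested gene.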
